A study of Populus trichocarpa with 24 samples.

Results

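Among 41335 loci of black cottonwood (Populus trichocarpa), 152 were strongly restricted to leaf. Members were selected on their measured levels: a locus was taken when its mean over the 3 leaf libraries reached at least 50 CPM (counts of a locus per 1000000 counts of its library) and at least 8 times the highest of its means in shoot tip, phloem, root and xylem. The leaf and tissue levels chose these loci, so their excess in leaf is described here and not tested. Of the 3078 loci with a mean of at least 50 CPM in leaf, the 152 make up 4.94%.

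RNA was sequenced from 24 libraries in 8 groups of 3, and no genotype difference or treatment is labelled for any of them. Groups were 5 tissues (shoot tip from the upper internodes, fully expanded young leaf, phloem scraped from the bark, primary root, and differentiating xylem scraped from the debarked stem) and 3 laser captures from xylem (of fibers, which strengthen wood, of vessels, which conduct water, and of fibers, vessels and rays together, called the mix below). The trees were 6 months old and kept in a greenhouse, except that root samples were taken from seedlings kept in water, whose labelled age is 6 months too. Only the captured RNA was amplified, so amplification cannot be told apart from the difference between captures and tissues. Totals per library lay between 5689642 (root replicate 1) and 30917688 counts (leaf replicate 2). No label ties a replicate to a tree of its own, so the p-values below rest on the spread among libraries, which may be technical.

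A fully expanded leaf is the main site of photosynthesis. Its mesophyll cells hold the chloroplasts, whose light-harvesting and carbon-fixing proteins are largely encoded in the nucleus and rank among the most abundant products of a green leaf. Its epidermis makes the cuticle and the stomata, and its veins hold xylem and phloem of their own. The deposited table gives locus identifiers alone, and the reference used here matched 0 of them, so no gene name or function is given to any locus and lists of leaf functions or of cell type markers were not applied. By the naming convention of these identifiers, the digits before the letter G give the chromosome.

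In leaf the 152 loci together took 11.03%, 9.74% and 8.87% of all counts in replicates 1, 2 and 3. Their leaf means ran from 50.8 to 13609 CPM with a median of 128.7 CPM. The abundance was concentrated, since the 10 most abundant loci held 57.3% of the summed leaf level and 21 loci exceeded 1000 CPM, while 60 lay below 100 CPM. CPM is not corrected for transcript length, so these levels rank read counts and not transcript numbers.

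The most abundant member was Potri.010G200500, on chromosome 10. It reached 14123, 14516 and 12188 CPM in leaf and 997.3, 965.6 and 1008 CPM in shoot tip. Its levels were 35.3, 68.8 and 40.3 CPM in phloem, 39.2, 74.6 and 44.5 CPM in xylem, and 10.9, 10.2 and 4.13 CPM in root. Leaf stood apart from every other library, and shoot tip stood apart from the remaining tissues without overlap. The captures held 12.3, 22.5 and 3.64 CPM in fiber, 21.1, 81.1 and 37.0 CPM in vessel, and 77.1, 71.2 and 61.9 CPM in the mix, so the locus was detected in all 24 libraries.

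Potri.004G100000, on chromosome 4, was next, with 12765, 9966 and 9638 CPM in leaf and 608.4, 808.4 and 789.2 CPM in shoot tip. Phloem had 26.1, 78.0 and 33.9 CPM, xylem had 27.5, 65.3 and 34.7 CPM, and root had 3.69, 5.18 and 2.20 CPM. Root was the lowest tissue for both loci, and the second replicate was the highest in both phloem and xylem.

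**Figure D1:**
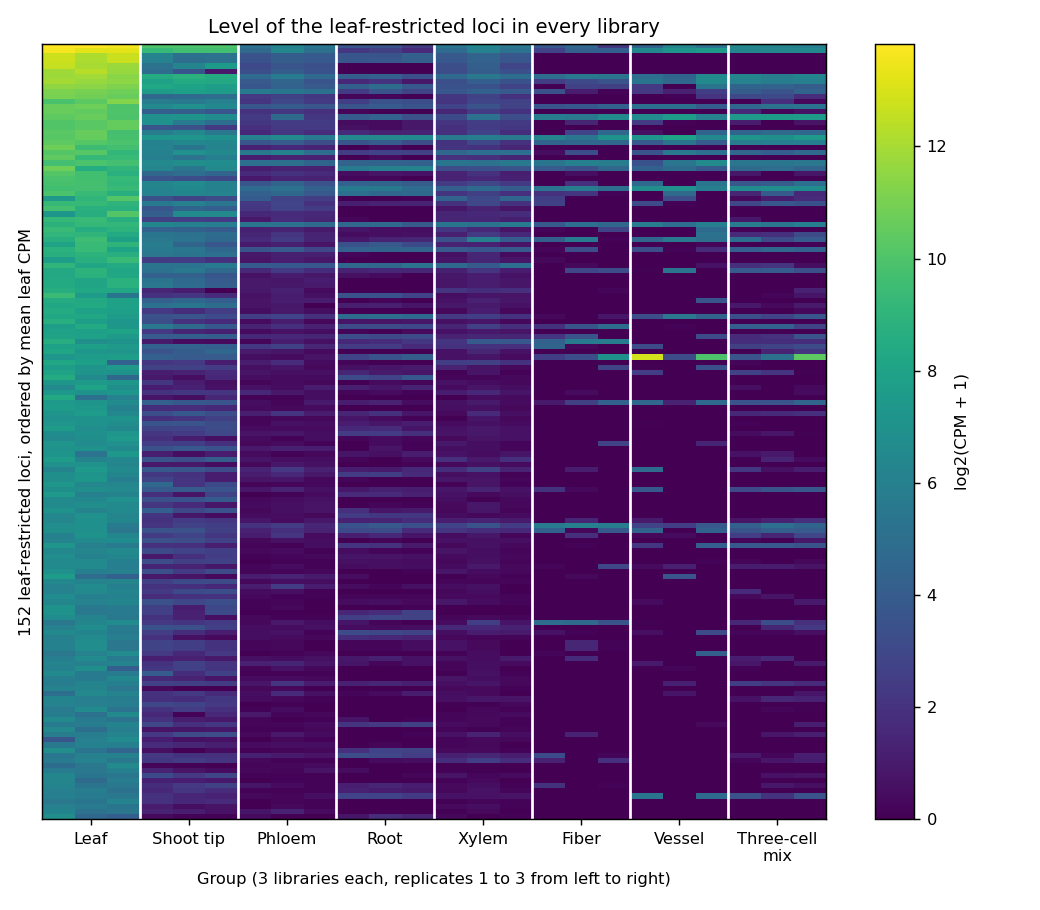
Level of each of the 152 loci (rows, ordered by mean leaf CPM) in each of the 24 libraries (columns), as log2(CPM + 1). Shoot tip is the next brightest tissue for most rows, and many rows have no count in the captures.

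Shoot tip was the next highest tissue for 130 of the 152 loci, root for 15, xylem for 5 and phloem for 2. The ratio of leaf to the next tissue had a median of 17.6 and reached 305.5. It was at least 100 for 15 loci and below 16 for 71. The 15 loci with root next were of low to moderate abundance, at 50.8 to 308.2 CPM in leaf and 1.18 to 28.5 CPM in root. Just inside the limit on the ratio were Potri.010G078800 (8.056) and Potri.008G200100 (8.061), and just outside were Potri.003G189100 (7.974) and Potri.005G091700 (7.95). Just inside the limit on the level were Potri.012G012100 (50.8 CPM) and Potri.008G183200 (51.4 CPM), and just outside were Potri.003G093200 (49.4 CPM) and Potri.001G347300 (48.6 CPM).

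The number of loci depends on how libraries are scaled. With TMM scaling of all 24 libraries, which corrects totals for a few very abundant genes, the same rule took 336 loci, all 152 among them. In the fit of the tissues the TMM factors of the leaf libraries were 0.645, 0.701 and 0.741, against 1.31 to 1.39 in root, so unscaled CPM gives lower leaf levels relative to the other tissues. The 152 are therefore the narrower set. Without leaf replicate 1, 2 or 3 the rule took 139, 156 and 163 loci, of which 128, 140 and 143 were shared.

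Leaf replicates differed among themselves. The coefficient of variation over the leaf libraries had a median of 28.1% and ran from 3.38% to 121.0%, with 5 loci above 100%. Replicate 1 was the highest leaf library for 75 loci, replicate 2 for 50 and replicate 3 for 27. Every leaf library lay above every library of the other tissues for all 152 loci. A stricter comparison, with every leaf library at least 8 times the highest single library of the other tissues, was met by 87 loci. For 37 loci the lowest leaf library was under 8 times the next tissue's mean.

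Some of the loci had neighbouring identifiers, though how often other loci do was not counted. In 8 runs of adjacent identifiers lay 20 of the 152 loci (13.2%), with 7 runs of 2 and 1 run of 6, from Potri.014G152300 to Potri.014G152800 on chromosome 14. These were singled out after their values were seen. Potri.014G152600, the most abundant of the run, had 1723, 724.2 and 819.1 CPM in leaf, 71.4, 40.7 and 71.3 CPM in shoot tip, 1.80 to 3.33 CPM in xylem, 1.39 to 1.96 CPM in phloem and at most 0.323 CPM in root. It had no count in any capture. Potri.014G152300 had nearly the same profile, with 1391, 584.6 and 663.9 CPM in leaf and 62.4, 37.8 and 62.2 CPM in shoot tip. All 6 loci of the run were highest in leaf replicate 1.

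Some loci had nearly the same counts as another locus. In 7 pairs the counts agreed within 5% in every leaf library, 4 of these pairs having identifiers at most 2 apart and 3 lying on different chromosomes. Potri.004G050600 and Potri.004G050700 had identical counts in all 24 libraries, 15 of them above 0. Potri.006G243600 and Potri.006G243700 differed by at most 1.77% in leaf, where the first had 7048, 4539 and 6837 CPM and the second 6942, 4460 and 6726 CPM. Potri.014G152700 and Potri.014G152800 differed by at most 0.12% in leaf but not in root, where the first had 0, 0 and 1 count and the second 10, 15 and 63. How reads shared by near-identical or overlapping loci were assigned is not stated in these sources, and the members of the 4 neighbouring pairs may not be wholly separate measurements. The 3 pairs on different chromosomes differed outside leaf. Potri.003G065300 and Potri.013G141900 had 210 and 2278 counts in shoot tip replicate 1, and Potri.001G113000 and Potri.006G004300 had 154 and 31.

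Counts of loci by chromosome ran from 2 on chromosome 17 to 21 on chromosome 1. Per 1000 loci listed, chromosome 16 held 7.63 and chromosome 4 held 5.9, and chromosome 17 held 1.29. These densities are descriptive.

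The summed level fell into 3 ranges among the tissues. It was 98829 ± 10885 CPM in leaf (SD, n = 3), 5541 ± 203.1 CPM in shoot tip, and about the same in phloem (680.2 ± 194.7), root (672.6 ± 43.9) and xylem (672.1 ± 155.9 CPM). On these unscaled totals the phloem, root and xylem sums overlapped. In phloem and xylem the second replicate was the highest, at 899.1 and 850.7 CPM. The TMM factors of the tissue fit were 1.31 to 1.39 in root and 1.03 to 1.04 in xylem. In phloem they were 1.11, 1.12 and 0.706. TMM scaling would thus lower the root sums more than those of phloem and xylem, so their likeness depends on the scaling. In whole tissues, fewer leaf-type cells and less RNA per cell cannot be told apart.

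**Figure D2:**
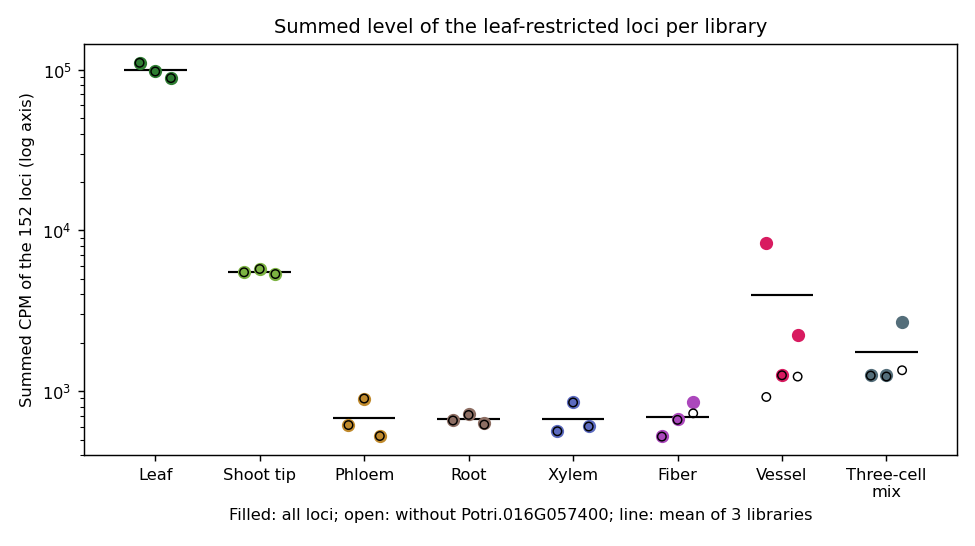
Summed CPM of the 152 loci in each library on a log axis (filled points), the same without Potri.016G057400 (open points) and the mean of 3 libraries (line). On unscaled totals phloem, root and xylem lie together, with means of 672.1 to 680.2 CPM. The spread of the vessel libraries from 1262 to 8359 CPM closes when Potri.016G057400 is left out.

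Shoot tip was compared with the other non-leaf tissues to see where the loci are next expressed. The leaf libraries are in neither arm of these comparisons, although the selection kept the means of all 4 tissues at least 8 times below leaf. All 152 loci passed the low-count filter, which leaf, the tissue that chose them, satisfies alone. The shares over all loci are therefore given for scale, and nothing is read from the members' excess over them. Calls required an adjusted p under 0.05 and a log2 fold of 1 or more in either direction, by edgeR's quasi-likelihood test with Benjamini-Hochberg adjustment over 31308 loci.

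Against xylem, 129 loci (84.9%) were higher in shoot tip and 2 were lower, while over all tested loci 26.5% were higher and 19.3% lower. The median log2 fold was 2.97 for the 152 loci and 0.09 for all. Against phloem 122 (80.3%) were higher and 0 lower in the edgeR test, with 18.1% and 13% over all loci and medians of 2.88 and 0.01. The 0 was also the count by DESeq2, and 0 loci were lower at an unadjusted p under 0.05. In a fit of all 24 libraries 80 were higher than in phloem, beside 2421 of 31819 loci over all. Against root 120 (78.9%) were higher and 4 lower, with 25.5% and 26.5% over all loci and medians of 4.21 and -0.03. These comparisons share the shoot tip libraries. The counts of higher loci were 119 to 130, 115 to 122 and 120 to 122 when single libraries of the compared groups were left out. Over all loci the same ranges were 7858 to 8220, 5248 to 5629 and 7720 to 8218.

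Among the loci higher in shoot tip than in xylem, the near-equal neighbours Potri.014G152800 and Potri.014G152700, which may not be separate measurements, had no count in xylem. The former had 5.12, 1.38 and 7.47 CPM in shoot tip and no count in phloem either, so that it was at least 72.7-fold higher than xylem (edgeR adjusted p = 0.000591) and at least 55.2-fold higher than phloem (edgeR adjusted p = 0.0017), each bound taking 3 counts over the lower group and covering counting error only. The latter was at least 69.5-fold higher than xylem (edgeR adjusted p = 0.000154). Potri.008G173800 had 6.64, 6.06 and 3.83 CPM in shoot tip and 1 count in the 3 phloem libraries together (edgeR adjusted p = 1e-06).

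Several loci higher in shoot tip than in root had no count in root, so that their folds are known as lower bounds and are not ranked. Each bound takes 3 counts over root and covers counting error only. Potri.009G129900 had 36.2, 78.4 and 187.0 CPM in shoot tip and no count in root, at least 686.5-fold higher (edgeR adjusted p = 1.95e-06). Potri.019G024600 had 17.3, 94.5 and 90.1 CPM in shoot tip and no count in root, at least 440.2-fold higher (edgeR adjusted p = 1.08e-05). The shoot tip libraries of both loci were spread over more than 5 times, yet none overlapped root.

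A few loci went the other way. Potri.001G152500 was lower in shoot tip (0.540 ± 0.410 CPM; SD, n = 3) than in xylem (9.98 ± 5.77 CPM), with a log2 fold of -4.07 ± 0.75 (SE; edgeR adjusted p = 0.000309). Potri.004G142900 was lower as well, at 0.990 ± 0.913 against 2.79 ± 0.424 CPM (log2 fold -1.47, edgeR adjusted p = 0.0359), and this call was lost without shoot tip replicate 2 or xylem replicate 1 and in a fit of all 24 libraries. Potri.012G012000 was lower in shoot tip than in root, at 0.296 ± 0.264 against 4.72 ± 1.82 CPM (log2 fold -3.48 ± 0.81, edgeR adjusted p = 0.00159). Potri.001G462400 was lower than in root too, at 1.08 ± 0.761 against 8.94 ± 3.71 CPM (log2 fold -2.75, edgeR adjusted p = 0.0118), a call lost without root replicate 3. The 2 lower calls against xylem became 1 without shoot tip replicate 2 or xylem replicate 1. The 4 lower calls against root became 8 without shoot tip replicate 1.

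**Figure D3:**
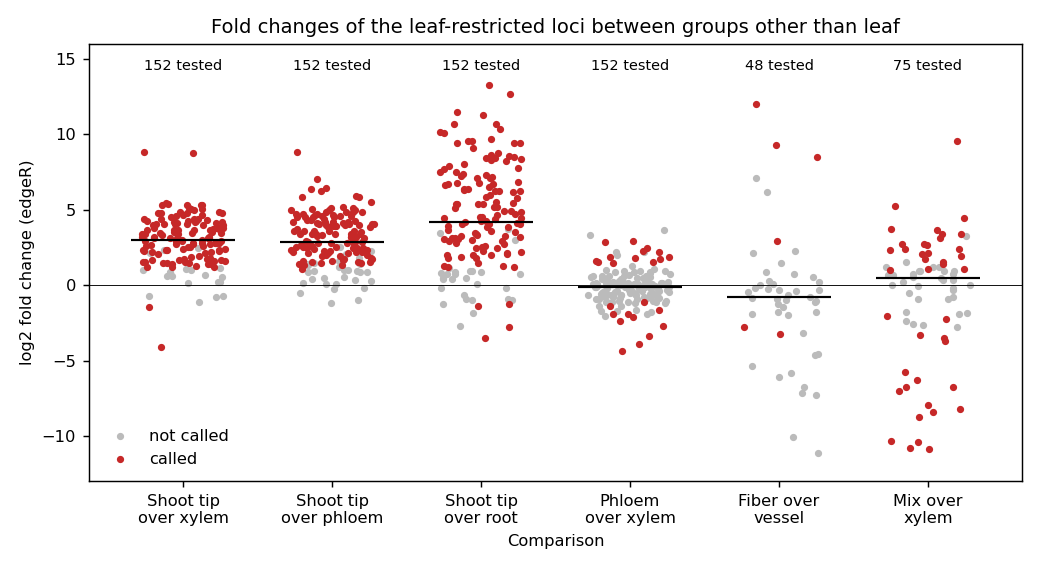
Log2 fold changes by edgeR of the 152 loci in 6 comparisons without leaf, each point being 1 tested locus, red where called, with the median as a line. The shoot tip comparisons lie mostly above 0, and phloem over xylem is centred near 0 with a median of -0.10.

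Phloem and xylem, the tissues on either side of the cambium, were compared next. Of the 152, 13 (8.55%) were higher in phloem and 11 (7.24%) lower, beside 18.7% and 17.3% of all tested loci, and the median log2 fold was -0.10. The selection kept both tissues low for these loci, whose means had medians of 0.624 CPM in phloem and 0.676 CPM in xylem, so nothing is read from the difference in shares. Potri.006G221900 was lower in phloem, with 0.245, 0.0782 and 0.108 CPM against 2.50, 4.97 and 2.54 CPM in xylem (log2 fold -4.37 ± 0.53, SE; edgeR adjusted p = 1.1e-05). Potri.001G152500 was also lower in phloem, at 0.626 ± 0.510 CPM against 9.98 ± 5.77 CPM in xylem (SD, n = 3). Its log2 fold was -3.88 ± 0.76 (SE; edgeR adjusted p = 0.000726). Potri.018G053600 was higher in phloem, at 1.14, 4.30 and 1.19 CPM against 0.364, 0.511 and 0 CPM (log2 fold 2.88, edgeR adjusted p = 0.00117). Potri.008G183200 was higher too (log2 fold 2.96, edgeR adjusted p = 0.0102) but on 5 counts in xylem, and this call was lost without phloem replicate 2 and in a fit of all 24 libraries.

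The order of the loci by level was set beside their order in leaf. Across the 152 loci the rank correlation of the group mean with the leaf mean was 0.80 for phloem, 0.80 for xylem, 0.75 for shoot tip and 0.35 for root, and 0.35, 0.39 and 0.38 for fiber, vessel and mix. These are descriptions across loci that share libraries. Phloem libraries had a count for 142 to 149 of the 152 loci and xylem libraries for 138 to 149, but each root library for 104 (68.4%). Root libraries were on average shallower. Root replicate 3 had 11373245 counts and phloem replicate 3 had 9231120, and the part of depth was not tested. Of all loci with at least 50 CPM in leaf, 95.6% to 96.4% had a count in the root libraries.

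A group of 22 loci had no count in root or in any capture. Of these 14 had a count in every phloem and xylem library. The 2 most abundant are described, chosen after their values were seen. Potri.009G129900 had 6353, 4139 and 3439 CPM in leaf, 7.34, 11.2 and 9.32 CPM in phloem and 9.11, 16.9 and 6.47 CPM in xylem, and 0 counts in the 12 root and capture libraries. Potri.001G348900, with 3744, 5189 and 3270 CPM in leaf, had 9.06, 16.0 and 10.1 CPM in phloem, 8.48, 16.1 and 9.51 CPM in xylem, and 0 counts in the same 12 libraries. In shoot tip it had 30.0, 11.1 and 0.957 CPM, so that shoot tip replicate 3 lay below every phloem and xylem library. For both loci the second replicate was the highest in phloem and in xylem.

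Expressed as a share of leaf, the group means of these 22 loci ran from 0.116% to 1.70% in phloem and from 0.0753% to 0.688% in xylem. Potri.009G129900 was at 0.200% of its leaf mean in phloem and 0.233% in xylem, and Potri.001G348900 at 0.288% and 0.280%. Over the 22 loci the median share was 0.233%, 0.333% and 0.285% in the phloem libraries and 0.213%, 0.364% and 0.192% in the xylem libraries. The lowest share was 0 in phloem and xylem replicates 1 and 3, 0.0533% in phloem replicate 2 and 0.070% in xylem replicate 2, and the highest in a phloem or xylem library was 3.05%. In shoot tip the medians were 2.12% to 2.62% and the highest was 23.1%. Among the 60 loci with at least 200 CPM in leaf, the lowest share was 0.0744% or more in every xylem library and 0.0768%, 0.170% and 0 in the phloem libraries, whereas in every root and capture library the lowest was 0. Whether these low levels come from cells of phloem and xylem, from leaf RNA or from reads carried over between libraries was not tested. The phloem and xylem values given above, the comparisons of shoot tip with both tissues and the rank correlations with leaf carry the same limit. So does the later comparison of the mix with xylem tissue.

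**Figure D4:**
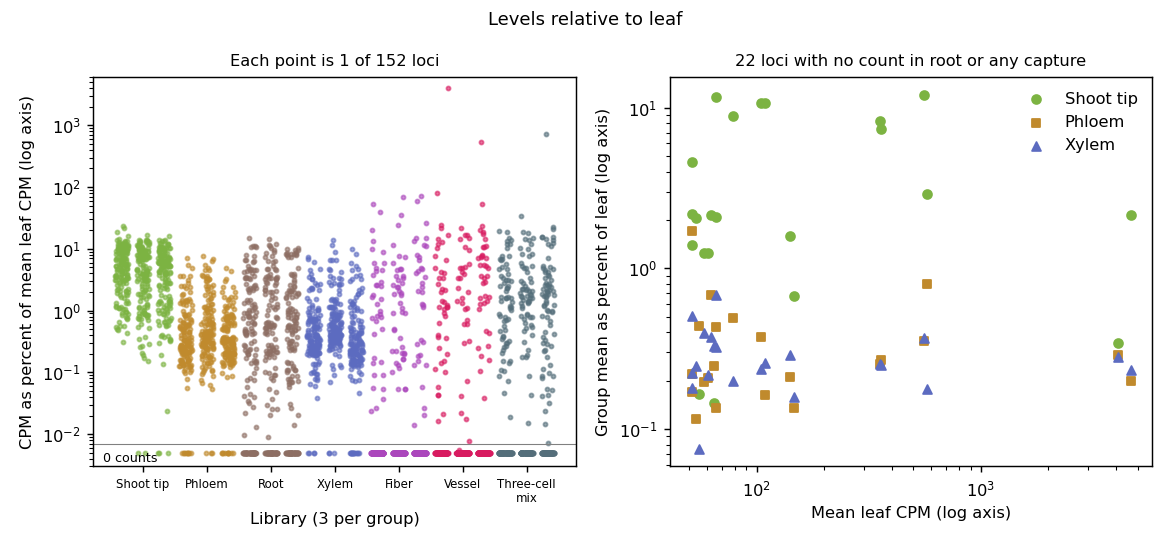
Left, CPM of each of the 152 loci in the non-leaf libraries as a percent of its leaf mean, on a log axis with loci without counts below the grey line. Right, group means as a percent of leaf against the leaf mean for the 22 loci with no count in root or captures, where phloem and xylem stay between 0.0753% and 1.70% while shoot tip reaches 12.1%.

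In the laser captures most of these loci were scarce. The selection used no capture library, but it kept xylem tissue, the source of the captures, at least 8 times below leaf. Of the 152, 57 (37.5%) had no count in any of the 9 capture libraries. Among all loci with at least 50 CPM in leaf, which carry no such limit, the share was 4.19%, and nothing is read from the difference. A further 32 of the 152 had a count in 1 or 2 libraries, 46 in 3 to 8, and 17 in all 9. Each fiber library detected 36 to 45 loci, each vessel library 33 to 44, and each mix library 65 to 78. These are 23.7% to 29.6%, 21.7% to 28.9% and 42.8% to 51.3% of the 152. Of all loci with at least 50 CPM in leaf, fiber libraries detected 81.2% to 85.2%, vessel libraries 81.8% to 87.4% and mix libraries 91.3% to 93.7%. Nothing is read from this difference either. Xylem tissue libraries detected 138 to 149, at totals of 12201511 to 19220147 counts, against 10554388 to 18040299 in the mix. Of all loci, xylem tissue libraries detected 30918 to 32393 and mix libraries 26596 to 28893. The part of depth in these numbers was not tested. At these depths a count of 0 does not show that a transcript was absent from the captured cells.

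Summed over the loci, fiber captures had 685.6 ± 167.1 CPM (SD, n = 3), vessel captures 3949 ± 3850 CPM and the mix 1742 ± 829.4 CPM. A single locus, Potri.016G057400 on chromosome 16, made up 89.0% of the sum in vessel replicate 1, 44.7% in vessel replicate 3 and 50.1% in mix replicate 3. Without it the vessel sums were 919.4, 1254 and 1231 CPM and the mix sums 1249, 1233 and 1348 CPM.

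Potri.016G057400 had 154.4, 192.6 and 215.8 CPM in leaf, 18.1, 14.8 and 14.7 CPM in shoot tip, 5.98, 10.03 and 15.8 CPM in root, and 0.328 to 0.730 CPM in xylem tissue. In the captures it had 7440, 7.90 and 995.4 CPM in vessel, 10.7, 33.9 and 1351 CPM in the mix, and 4.93, 8.66 and 132.2 CPM in fiber. Every capture library lay above every xylem tissue library, and it was the only locus whose mean in a capture group exceeded its leaf mean. The replicates of each capture group were far apart. It was higher in the mix than in xylem tissue, with a log2 fold of 9.59 ± 2.12 (SE; edgeR adjusted p = 0.00814), and these became 5.30 ± 0.60 and 0.00106 without mix replicate 3. DESeq2 gave it no adjusted p. Between fiber and vessel it was not called, at a log2 fold of -5.82 ± 2.32 (SE; edgeR adjusted p = 0.156), while DESeq2 called it at an adjusted p of 0.027.

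Fiber and vessel captures were compared to see whether any of the loci separates the main cell types of wood. Only 48 of the 152 could be tested, and a locus entered that test by being present in some capture. The edgeR test called 4 (8.33%) higher in fiber and 2 (4.17%) lower, against 2.86% and 3.19% of 22828 loci. These counts are small, and leaving out single libraries moved them. The number higher in fiber was 2, 1 and 2 without fiber replicates 1, 2 and 3. Over all loci it was 277, 313 and 362, against 652 with all libraries. The number lower was 1 without any of the fiber replicates or vessel replicate 3, and 3 and 4 without vessel replicates 1 and 2. Over all loci the lower calls were 728 with all libraries and 322, 420 and 391 without fiber replicates 1, 2 and 3. Without vessel replicates 1, 2 and 3 they were 817, 815 and 577.

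Both loci named as higher in fiber were nearly or wholly without counts in vessel. Potri.001G152500 had 18.9, 51.2 and 55.4 CPM in fiber and no count in vessel, at least 496.1-fold higher (edgeR adjusted p = 0.00568). This bound takes 3 counts over vessel and covers counting error only, not the spread among the amplified captures. Xylem tissue had 3.38, 14.1 and 12.5 CPM and the mix 2.46, 2.52 and 2.55 CPM. The fiber libraries were thus above every library outside leaf, where it had 388.1, 113.0 and 136.4 CPM. It was also the locus lower in shoot tip and in phloem than in xylem, as given above. Potri.011G158300 had 29.2, 26.3 and 11.03 CPM in fiber and 1 count over the vessel libraries (edgeR adjusted p = 0.0195). Its call was lost without fiber replicate 1 or 2 and with a replicate block.

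Both loci lower in fiber were abundant in leaf. Potri.004G100000, the second most abundant of the 152, had 5.77, 17.9 and 16.4 CPM in fiber and 88.2, 142.4 and 171.2 CPM in vessel (log2 fold -3.25 ± 0.51, SE; edgeR adjusted p = 0.00591). Its mix libraries, at 79.2, 84.4 and 86.5 CPM, lay between fiber and vessel without overlap, and this call held without each single library. Potri.004G162400 had 4.69, 7.31 and 10.5 CPM in fiber and 38.2, 23.7 and 97.2 CPM in vessel (log2 fold -2.75 ± 0.68, SE; edgeR adjusted p = 0.0398). This call was lost without any of the fiber replicates or vessel replicate 3, with no filter on low counts and with a replicate block. Potri.010G200500, the most abundant locus, was at a log2 fold of -1.75 ± 0.74 and was not called (edgeR adjusted p = 0.178).

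**Figure D5:**
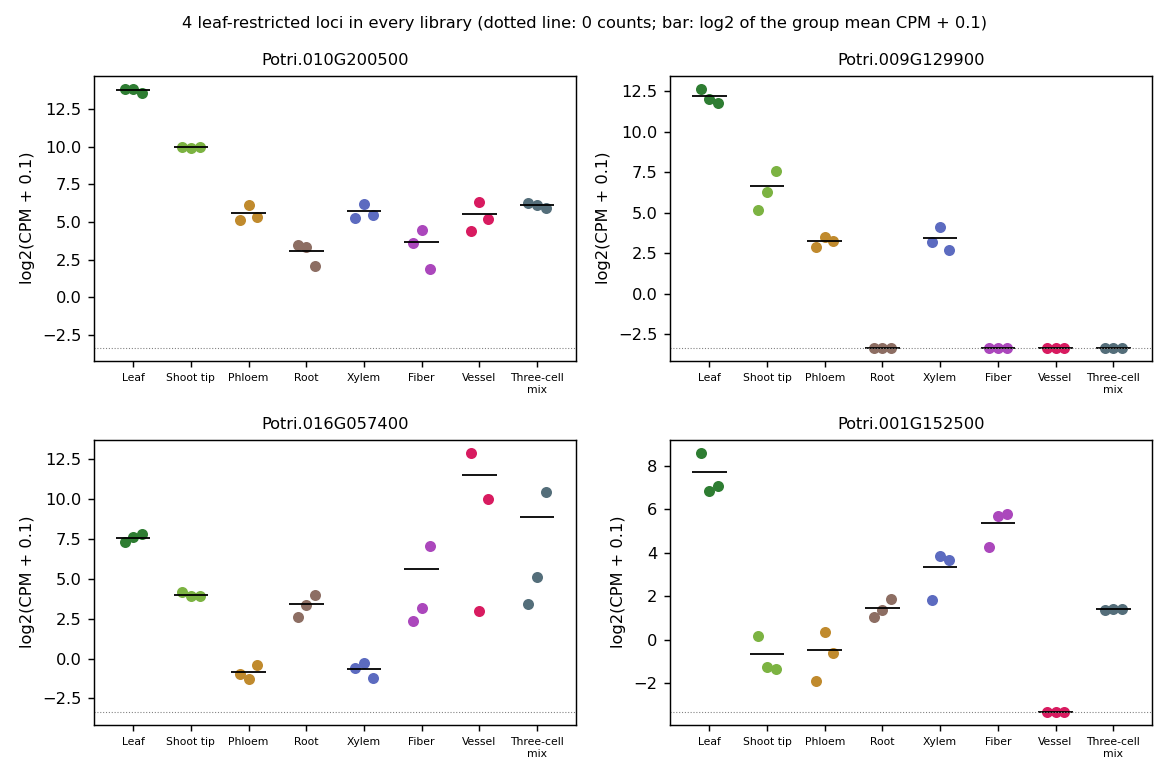
Levels of 4 loci in every library as log2(CPM + 0.1), with the group mean as a bar and 0 counts on the dotted line. Potri.009G129900 is at 0 in root and captures but not in phloem or xylem, Potri.016G057400 is spread widely in the captures, and Potri.001G152500 is at 0 in vessel and at 18.9 to 55.4 CPM in fiber.

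The mix was compared with the xylem tissue scraped from stems. Here 75 of the 152 loci could be tested, those with enough counts in either group, and edgeR called 23 higher in the mix and 18 lower. Over all 25245 loci tested, 16.9% were higher and 21.3% lower. The selection kept xylem tissue low, so a locus could enter through its counts in the mix, and nothing is read from the members' share. With no filter on low counts the test called 21 of the loci higher and 44 lower, beside 4144 and 5882 of 34997 over all. Lower in the mix were Potri.006G243600, with 13.6, 20.2 and 12.4 CPM in xylem tissue, and its near-equal neighbour Potri.006G243700, with 12.9, 19.5 and 12.0 CPM. Neither had a count in any capture, so they were at least 222.1-fold and 213.7-fold lower (edgeR adjusted p = 0.000306 and 0.000317). These bounds cover counting error only. The leaf means of both were 6141 and 6043 CPM. Whether their xylem counts came from xylem cells, leaf RNA or reads carried over between libraries was not tested. Higher in the mix, beside Potri.016G057400, was Potri.001G424700, with 13.4, 13.3 and 11.1 CPM against 0.208, 0.511 and 0.246 CPM in xylem tissue (log2 fold 5.23 ± 0.45, SE; edgeR adjusted p = 0.000241). It had 3.69, 0 and 16.7 CPM in vessel and a single fiber library with counts, at 0.104 CPM.

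Some loci were present in all captures at levels above xylem tissue. Potri.008G002900, named after its values were seen, had 56.1, 44.2 and 96.5 CPM in fiber, 99.4, 196.0 and 64.4 CPM in vessel and 180.8, 181.6 and 199.4 CPM in the mix, against 7.70, 34.98 and 8.61 CPM in xylem tissue. Over the 152 loci, 32 had a mean of at least 10 CPM in at least 1 capture group. For 65 the highest of the capture group means exceeded the xylem tissue mean. Taking the highest capture mean favours the captures, and the selection kept xylem tissue low. The same counts over all loci are not given, so neither count is read as a trait of these loci. Amplification was confined to the captures. Its part in the differences between captures and xylem tissue cannot be told apart from that of the cells taken.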

How the data were processed

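A single table of whole-number raw counts for each locus in 24 libraries was deposited by the authors, without normalization. TopHat was used on the reads, per the submitters' processing notes. For the counting tool, genome build, annotation and strand setting, nothing is given in the sources used here. Each column matched 1 sample title, and 0 columns lacked a sample.

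CPM values use unscaled library totals, as the selection rule does. The members and lists were chosen with earlier results of these data known. Tests ran in R 4.3.3 with edgeR 4.0.16 (filterByExpr, TMM, quasi-likelihood test, Benjamini-Hochberg adjustment over all tested loci), DESeq2 1.42.0 as the alternative, and Python 3.11.15 (matplotlib 3.10.9) was used for figures. The 15 tissue libraries were fitted together (31308 loci, spread 27.5%). So were the 9 captures (22828 loci, 111.3%) and the 6 mix and xylem libraries (25245 loci, 36.9%). Spread here is the root of edgeR's common dispersion among libraries, which may be technical. Standard errors were obtained from the log2 fold and the F statistic, as fold size over root F. The method was tested on simulated counts.

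Identifiers were named by rule: the 2 most abundant loci, 2 on each side of each limit, and for each comparison the 2 largest fitted folds each way among called loci whose libraries did not overlap. Others are marked as chosen after their values were seen, or are members of pairs and runs described as such. The lists of functions by product name, 11 in all, and 4 lists of cell type markers could not be applied.

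Whether replicates with the same number vary together was tested through the correlation of their departures from the group mean. Only shoot tip with xylem (0.32, 0.17 and 0.30) and phloem with xylem (0.17, 0.41 and 0.20) exceeded 0.1 for all numbers. The main tests paired no groups, these included, and a replicate block was run for every comparison as an alternative only. The labels say nothing of pairing. Alternatives were other scalings, filters, thresholds and tools, a replicate block, 1 fit of all libraries, and leaving out each library.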

Additional observations from a re-analysis of the deposited data

How the results depend on the processing

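The number of loci moved from 152 to 336 with TMM-scaled library sizes, 354 with median-ratio size factors, 398 at a ratio of at least 4, 81 at a ratio of at least 16 and 92 at 100 CPM or more, and lay at 139 to 163 without single leaf replicates. One fit of all 24 libraries, whose shared spread includes the captures, moved most counts: 1 lower in shoot tip than xylem, 80 higher in shoot tip than phloem, 2 lower in shoot tip than root, 3 higher and 4 lower in phloem than xylem, 11 higher and 20 lower in fiber than vessel, and 12 higher and 61 lower in the mix than xylem. Over all 31819 loci of that fit, the same calls numbered 2888, 2421, 4028, 2180 and 2213, 4419 and 4950, and 1826 and 4039, in that order. Loci lower in shoot tip than root numbered 8 by DESeq2 (8335 of 31308 over all loci) and 7 without a fold threshold (10645). Those lower in fiber than vessel were 7 by DESeq2 (2309 of 22828). Those lower in the mix than xylem were 44 with no filter on low counts (5882 of 34997). Without single libraries the counts ran from 1 to 3 (lower in shoot tip than xylem), 3 to 8 (lower than root), 9 to 18 and 8 to 12 (higher and lower in phloem than xylem), 1 to 4 in each direction between fiber and vessel, and 17 to 25 and 15 to 25 (higher and lower in the mix than xylem). Over all loci, in the same order, the tissue ranges were 5740 to 6604, 7721 to 8842, 5374 to 5833 and 4935 to 5769. Between fiber and vessel 277 to 1223 of all loci were higher and 322 to 817 lower. In the mix 3328 to 4487 were higher than in xylem and 4182 to 6130 lower. The cause of these moves was not tested.

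With a replicate block, shoot tip over root had 7 lower calls, beside 8430 of 31308 loci over all. Fiber over vessel had 1 call in each direction, beside 431 higher and 497 lower of 22828. There Potri.004G162400 and Potri.011G158300 were no longer called (edgeR adjusted p = 0.0898 and 0.0522). The replicates of those groups share only a number, their correlations being 0.01, 0.01 and 0.06 for shoot tip with root and 0.01, -0.01 and 0.01 for fiber with vessel, where 4 and 3 of 6 libraries correlated best with their own number. The mix and xylem had 6 of 6, a hint from the data alone, at 0.03, 0.10 and 0.13, and shoot tip and phloem 4 of 6. Elsewhere the block moved no count by more than 1.5 times, among them 129 and 2 for shoot tip over xylem and 15 and 14 for phloem over xylem. Over all 31308 loci the block gave 8334 and 6098 for the former and 5901 and 5502 for the latter. Among the loci named for the largest folds of a comparison, no log2 fold in that comparison changed sign under any alternative that gave an adjusted p. Between fiber and vessel 104 of the 152 loci had too few counts to be tested. Root replicate 1, with 5689642 counts, detected 104 of the 152 and 32381 loci in all. Fiber and vessel libraries, with 8317935 to 13006622 counts, detected 33 to 45 of the 152 and 17956 to 22355 loci in all. The part of depth in these differences was not tested.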
